A study of Mus musculus with 14 samples.

Results

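The growth hormone, somatostatin and IGF axis was followed in the mouse hypothalamus through 10 genes, taken by their symbol in the platform annotation. They were Ghrh, Sst, Sstr1, Sstr2, Ghr, Igf1, Igf1r, Igf2, Igfbp2 and Igfbp5, and all 10 were found among the 17097 genes tested. Together they had 19 probe sets that named no other gene, and each gene was read from the one with the highest mean over the 14 arrays. The arrays formed 4 groups, namely knockout fasted (n = 3), knockout fed (n = 4), control fasted (n = 3) and control fed (n = 4). Knockout mice lacked Mfn1, which encodes a mitochondrial fusion protein, in POMC neurons according to the labels, the arcuate neurons that make appetite-suppressing melanocortins. Fasted mice had gone 16 h without food and fed mice ate at will, and all were 12 weeks old, on a mixed background of C57Bl/6J, FVB/N and 129. The sources used here give no Cre line, no genotype of the control mice beyond that word, and no statement that 1 array holds 1 mouse. P-values therefore measure the spread between these samples, which may be technical.

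Growth hormone release from the pituitary is driven by growth hormone-releasing hormone, the product of Ghrh, which is made by arcuate neurons, and is held back by somatostatin, the product of Sst. Growth hormone acts through its receptor Ghr and raises IGF-1, which signals through Igf1r and feeds back on the hypothalamus, while the Igfbp proteins bind IGFs and limit their access to the receptor. In the brain, Igf2 and Igfbp2 are known for strong expression in the choroid plexus, the ventricular tissue that makes cerebrospinal fluid, and in the meninges. Fasting changes growth hormone secretion in mice, and the 4 groups allow the axis to be read with and without food in both genotypes.

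All values are log2 expression values on the RMA scale, on which 1 unit is a doubling of signal, and the level of a probe set cannot be set against that of another. Array medians lay between 4.98 and 5.05. The 23 probe sets without a target had a median of 3.64, and a value over their 95th percentile, 4.14, is called above background here. Of 12 arcuate neuron markers fixed for the check of the tissue, 9 were measured, 7 of them above background on all 14 arrays, and Otp on none. The targeted gene Mfn1 stood between 9.03 and 9.12 on knockout arrays and between 8.99 and 9.10 on control arrays, a difference of 0.01 ± 0.03 (SE, limma, adjusted p = 0.9995). POMC neurons are a small share of hypothalamic cells, and the deleted stretch and its relation to the probes are not given, so this does not check the labels. The titles hold a running number, and the 6 fasted arrays and knockout fed replicate 1 have the 7 lowest numbers, the other 7 fed arrays the highest. The labels do not say what the numbers stand for, and where they mark a difference in handling, it can hardly be told apart from fasting. Only the knockout fed group holds both low and high numbers. A fit with the number series as a covariate therefore takes its effect from knockout fed replicate 1 against the other 3 of that group. Replicate numbers follow the order of deposition and only name the arrays.

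**Figure D1:**
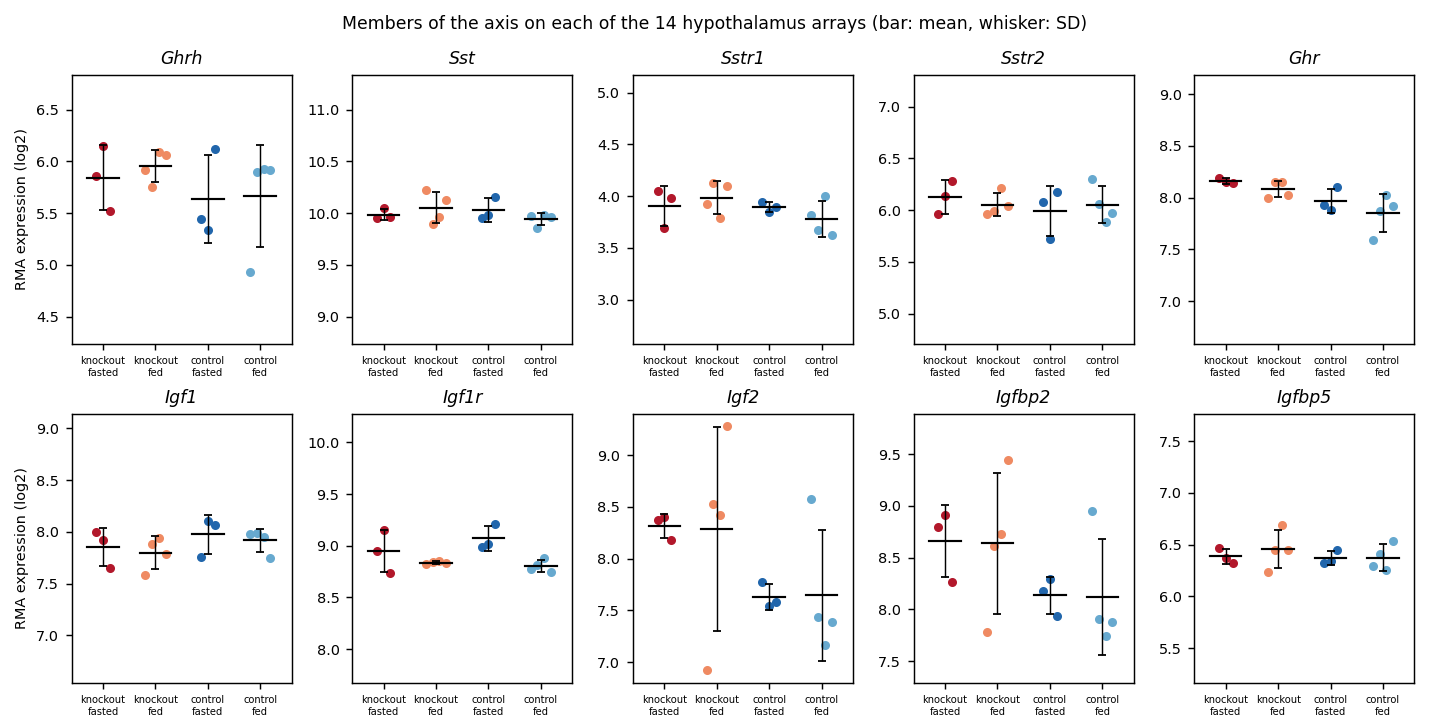
RMA expression (log2) of each of the 10 members on every array, in knockout fasted (n = 3), knockout fed (n = 4), control fasted (n = 3) and control fed mice (n = 4), with the mean as a bar and the SD as a whisker. Each panel spans the same number of log2 units, so the spread of Igf2 (range 2.36) and Igfbp2 (range 1.70) can be seen against that of the other 8 members.

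The members fell into 2 kinds by how far they varied. Igf2, a growth factor of the IGF family, ranged over 2.36 log2 units across the 14 arrays, a span larger than that of 99.7% of all genes. Igfbp2, an IGF-binding protein, ranged over 1.70 (99.0% of genes had a smaller range) and Ghrh over 1.22 (97.2%). The other 7 members kept within 0.36 for Sst to 0.60 for Ghr, against a median of 0.45 over all genes. Sstr1, a somatostatin receptor, was above background on 0 of 14 arrays, from 3.62 to 4.13, a level at which RMA compresses differences. The main probe sets of the other 9 members were above background on every array. In RNA of a whole tissue, fewer cells of a type and less RNA per cell cannot be told apart.

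The first comparison was fasted against fed mice, which asks how the axis in the hypothalamus answers to 16 h without food. With both genotypes averaged, 0 of 10 members passed the threshold in limma (adjusted p of 0.05 over all genes), where 10% of all genes did, and 1 member, Igf1r, had an unadjusted p below 0.05, as did 26.0% of all genes. The median difference of the members was 0.01, against 0.002 for all genes tested, and their median size without sign was 0.03, against 0.08. The receptor Igf1r had the largest difference among them, 0.19 higher in fasted mice and just short of the threshold. Ghrh and Sst, the stimulating and the restraining hormone, differed by -0.07 and 0.01. Within knockout mice 0 of 10 members passed, where 0.696% of all genes did, and within control mice 0 of 10, where 2.76% did. Unadjusted p-values below 0.05 were reached by 0 members in knockout mice (16.5% of all genes) and by 1, again Igf1r, in control mice (17.5%). No member had groups apart in knockout mice, where 13.0% of all genes had.

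Igf1r encodes the tyrosine kinase receptor through which IGF-1 and IGF-2 promote growth. It stood at 8.95, 9.15 and 8.74 in knockout fasted mice and at 8.82, 8.84, 8.85 and 8.83 in knockout fed mice. It stood at 8.99, 9.02 and 9.21 in control fasted mice and at 8.78, 8.81, 8.88 and 8.75 in control fed mice. Every control fasted array lay above every control fed array, as was so for 16.5% of all genes in that comparison. Among knockout mice the groups overlapped, since fasted replicate 3 was the lowest array of all 14 and the other 2 fasted arrays were above all fed ones. The fed arrays lay close together, with an SD of 0.01 in knockout and 0.06 in control mice, while the fasted groups had SDs of 0.20 and 0.12.

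Averaged over genotypes, Igf1r was 0.19 ± 0.06 higher in fasted mice, 1.14-fold (95% interval 0.06 to 0.32, limma, adjusted p = 0.0574). In control mice alone the difference was 0.27 ± 0.08 (adjusted p = 0.111), and in knockout mice 0.11 ± 0.08 (adjusted p = 0.545). The interaction, in which the control difference is taken from the knockout one, was -0.16 ± 0.12 (adjusted p = 0.9999), so the genotypes were not shown to differ in it. An exact two-sided permutation of the feeding labels within each genotype gave p = 0.00898, unadjusted, and 0.0898 adjusted over the 20 such tests. The averaged difference passed the threshold when knockout fasted replicate 3 was left out (0.24, adjusted p = 0.00964). With the series of the title numbers as a covariate, set by knockout fed replicate 1 alone, it was 0.21, with an adjusted p of 0.621.

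Igf1r had 4 probe sets, and 3 of them had like differences between fasted and fed mice. These were 0.19 for the main one, 0.16 ± 0.05 for one with a mean level of 8.65 and 0.20 ± 0.07 for one with a mean level of 7.34. The remaining probe set, with a mean level of 4.45, had a difference of 0.04 ± 0.08. Tested probe set by probe set, the smallest adjusted p among the 4 was 0.0643, so none passed. Over the 14 arrays the main probe set followed the next brightest with an r of 0.89 and the dimmest with an r of 0.46.

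**Figure D2:**
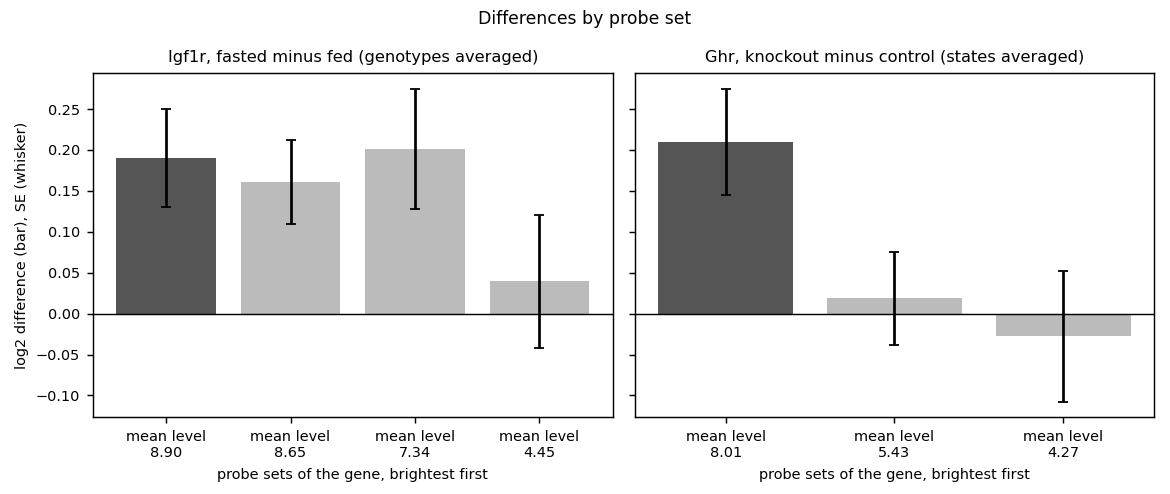
Log2 difference (bar) and SE (whisker) for each probe set of Igf1r in fasted minus fed mice, genotypes averaged, and of Ghr in knockout minus control mice, feeding states averaged, with the mean level of the probe set under each bar and the probe set used in the report in dark grey. Of Igf1r, 3 of 4 probe sets lie between 0.16 and 0.20, whereas of Ghr only the brightest, at 0.21, stands away from 0.

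Markers of some other cell types also differed with fasting, in a comparison where 5.14% of all genes were called higher and 4.9% lower. The astrocyte score, the mean of the centred log2 values of 11 markers, lay between 0.05 and 0.12 in knockout fasted arrays and between -0.12 and -0.08 in knockout fed arrays. It lay between 0.10 and 0.24 in control fasted arrays and between -0.13 and -0.04 in control fed arrays. With genotypes averaged, 4 of its 11 markers were higher and 1 was lower in fasted mice. The microglia score ran the other way, with 5 of 10 measured markers lower and 0 higher in fasted mice. It lay between -0.30 and 0.002 in knockout fasted, 0.02 and 0.14 in knockout fed, -0.34 and -0.15 in control fasted and 0.17 and 0.26 in control fed arrays. The pericyte and smooth muscle score also split the arrays by feeding, from -0.12 to -0.06 in knockout fasted and -0.007 to 0.12 in knockout fed arrays, and from -0.18 to -0.06 in control fasted and -0.042 to 0.18 in control fed arrays, with 2 of 6 measured markers lower in fasted mice. Of 9 measured oligodendrocyte markers 1 was higher and 2 were lower, and that score lay between -0.35 and 0.08 in knockout fasted, 0.008 and 0.22 in knockout fed, -0.20 and -0.15 in control fasted and 0.06 and 0.16 in control fed arrays. Among the other lists, 2 of 8 endothelial, 1 of 10 cortical and hippocampal and 1 of 5 thalamic markers were lower, and 1 of 10 tanycyte and 1 of 9 arcuate markers were higher. No choroid plexus, meninges, ependyma, pituitary or striatum marker was called. With the shares of all genes above, 1 call in a list this short is no result about those cells. The part of these cells in the Igf1r values was not tested.

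Ghrh encodes the arcuate hormone that stimulates growth hormone release. It stood at 5.86, 6.15 and 5.52 in knockout fasted mice, at 5.92, 5.75, 6.09 and 6.06 in knockout fed mice, at 5.44, 5.34 and 6.12 in control fasted mice and at 4.93, 5.90, 5.93 and 5.92 in control fed mice. All 4 groups overlapped, and control fed replicate 1 was the lowest array by a wide margin. The fasting difference was -0.07 ± 0.18 with genotypes averaged (95% interval -0.45 to 0.30, limma, adjusted p = 0.835). The knockout minus control difference, with feeding states averaged, was 0.25 ± 0.18 (95% interval -0.13 to 0.63, adjusted p = 0.9995). It was 0.12 without control fed replicate 1, and 0.54 with the choroid plexus score, described further on, in the fit (adjusted p = 0.678). The arcuate neuron score includes Npy, itself 0.78 higher in fasted mice, and Slc6a3, which ran from 5.39 to 8.92, the widest range among its markers. Over the 14 arrays, Ghrh had a Pearson r of 0.55 with this score (permutation p = 0.042, 0.067 adjusted over 8 relations) and a Spearman rho of 0.43 (permutation p = 0.13). The r was 0.38 without control fed replicate 1 and knockout fed replicate 1, whose scores lie farthest from the median, so the relation rests in part on those samples. It was 0.54 over the 6 fasted and 0.73 over the 8 fed arrays. Within the 7 arrays of low title numbers r was 0.23, against 0.94 within the 7 of high ones, so the relation did not hold within the low numbers. The 0.73 and the 0.94 both include control fed replicate 1, the lowest of all arrays in Ghrh (4.93) and in the score (-0.45). How far they rest on it was not tested.

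Sst encodes somatostatin, which is made by periventricular neurons that restrain growth hormone release and by many interneurons elsewhere in the brain. It stood at 9.95, 10.05 and 9.96 in knockout fasted mice, at 10.22, 9.90, 9.96 and 10.13 in knockout fed mice, at 9.95, 9.98 and 10.16 in control fasted mice and at 9.97, 9.86, 9.98 and 9.96 in control fed mice. Its 14 values spanned 0.36, the narrowest range of the members, and the groups overlapped in every comparison. The averaged fasting difference was 0.01 ± 0.06 (95% interval -0.11 to 0.13, limma, adjusted p = 0.930). This interval overlaps that of Igf1r (0.06 to 0.32), and the genes were not tested against each other. The averaged genotype difference was 0.03 ± 0.06 (95% interval -0.09 to 0.15, adjusted p = 0.9995). Sst did not follow the cortex and hippocampus score, whose tissue holds many somatostatin interneurons (Pearson r = -0.02, permutation p = 0.94, Spearman rho = -0.06, permutation p = 0.83, n = 14). The r was 0.51 within the 7 arrays of low title numbers and 0.29 within the 7 of high ones.

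Sstr2, a receptor through which somatostatin quiets neurons and pituitary cells, stood at 5.96, 6.14 and 6.28 in knockout fasted mice, at 5.96, 5.99, 6.21 and 6.04 in knockout fed mice, at 6.08, 5.72 and 6.17 in control fasted mice and at 6.30, 6.06, 5.88 and 5.97 in control fed mice. No pair of groups was apart. Its averaged differences were 0.01 ± 0.09 for fasting and 0.07 ± 0.09 for genotype. Sstr1, near background throughout, stood between 3.69 and 4.05 in knockout fasted, 3.79 and 4.13 in knockout fed, 3.85 and 3.94 in control fasted and 3.62 and 4.0 in control fed mice, and its differences were 0.02 ± 0.08 and 0.11 ± 0.08.

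The promoters of Sst and Sstr2 are shown because they alone among the members searched hold a whole cAMP response element in the stretch searched. This is the motif through which CREB acts and by which the Sst promoter is known. Sstr1 had no window and was not searched. RefSeq windows from 250 bases before to 50 bases after a transcript start (GRCm38.p6) were at hand for 9 of the 10 members, 15 windows in all, of which Ghrh, Ghr and Igfbp2 had 2 each and Igf2 had 4. The letters TGACGTCA, which read alike on both strands, occurred within 250 bases before the start in 1.55% of 32851 mouse windows. They lay 48 bases before the start of Sst and 58 bases before that of Sstr2. The stretches, each of 150 bases upstream of the start and with the motif in capitals, are chr16:23890845-23890994 (minus strand) for Sst and chr11:113619177-113619326 (plus strand) for Sstr2.
Sst: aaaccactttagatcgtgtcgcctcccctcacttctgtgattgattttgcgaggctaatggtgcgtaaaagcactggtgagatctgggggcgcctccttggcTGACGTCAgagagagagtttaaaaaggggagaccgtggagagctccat
Sstr2: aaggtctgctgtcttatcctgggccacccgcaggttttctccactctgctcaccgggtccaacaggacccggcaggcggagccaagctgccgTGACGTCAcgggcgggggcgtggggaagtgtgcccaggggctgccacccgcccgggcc
Neither gene passed the threshold in any comparison, and a match describes the letters in the window only. The letters GTAAACA, which FOXO factors bind, and the palindrome of the glucocorticoid response element were each searched on both strands. They were in 0 of the 15 member windows, against 3.17% and 0.387% of all windows.

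The second comparison was knockout against control mice, which asks whether Mfn1 in POMC neurons bears on the axis. With feeding states averaged, 0 of 10 members passed the threshold, where 0.00585% of all genes (1 gene) did. Ghr and Igf2 had unadjusted p-values below 0.05, a level that 4.65% of all genes reached. The growth hormone receptor gene Ghr was 0.21 higher in knockout mice, and Igf2 and Igfbp2 had the largest differences, 0.66 and 0.52, on top of a wide spread within groups. The median difference of the members was 0.09, against -0.001 for all genes tested. In fed mice alone, where 0.00585% of all genes passed, and in fasted mice alone, where 0.0% passed, 0 of 10 members passed in limma, and 1 member, Ghr (4.62% of all genes), and 0 members (3.86%) had an unadjusted p below 0.05. No member's knockout arrays were all on one side of all control arrays, as was so for 0.0585% of all genes, and none were in fed mice alone, where 2.46% of all genes were.

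**Figure D3:**
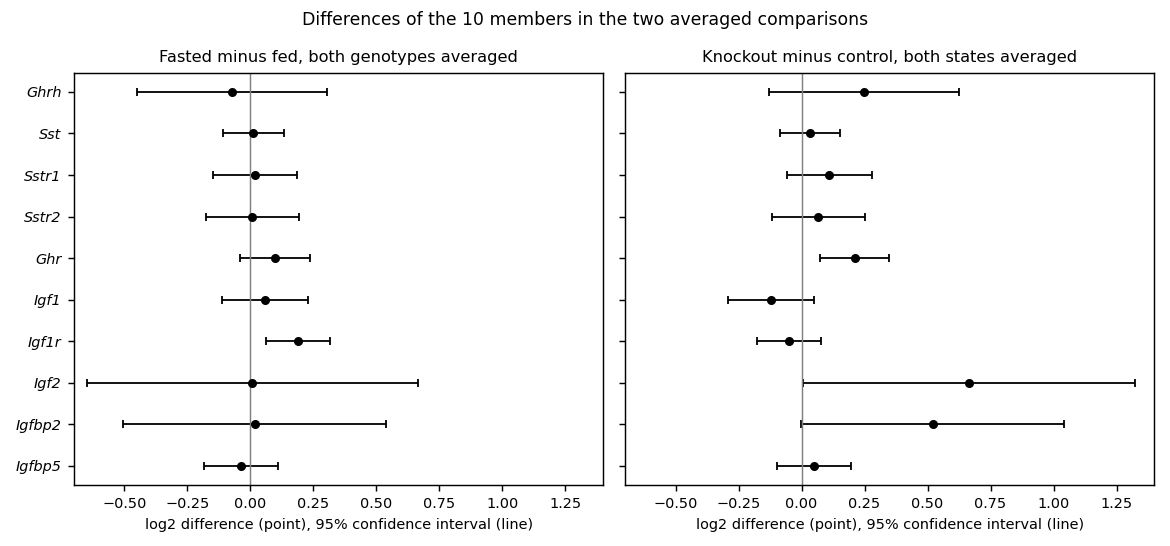
Log2 differences of the 10 members (points) with their 95% confidence intervals (lines), fasted minus fed mice averaged over genotypes and knockout minus control mice averaged over feeding states, n = 14 arrays. The intervals of Igf1r for fasting (0.06 to 0.32), and of Ghr (0.07 to 0.35) and Igf2 (0.01 to 1.32) for genotype, lie above 0 before any adjustment.

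Ghr encodes the growth hormone receptor, which signals through JAK2 and STAT5. It stood at 8.19, 8.15 and 8.14 in knockout fasted mice and at 8.0, 8.15, 8.15 and 8.03 in knockout fed mice. It stood at 7.93, 7.88 and 8.10 in control fasted mice and at 7.59, 7.87, 8.03 and 7.92 in control fed mice. The 3 knockout fasted arrays lay above the 3 control fasted arrays, a separation that 7.64% of all genes showed in that comparison. In fed mice the groups overlapped at 8.0 to 8.03, and control fed replicate 1 was the lowest array. The averaged difference was 0.21 ± 0.06, 1.16-fold (95% interval 0.07 to 0.35, limma, unadjusted p = 0.00585, adjusted p = 0.935). An exact two-sided permutation of the genotype labels within each feeding state gave p = 0.00429, unadjusted, and 0.0857 adjusted over the 20 such tests. The differences in fed and in fasted mice were 0.23 ± 0.08 and 0.19 ± 0.10. With the choroid plexus score, high on most knockout and low on most control arrays, in the fit, the averaged difference was 0.29 (adjusted p = 0.529).

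The probe sets of Ghr did not show the same thing. A probe set with a mean level of 5.43 had a genotype difference of 0.02 ± 0.06, and one with a mean level of 4.27, at the edge of background, a difference of -0.03 ± 0.08. The mean of the 3 probe sets differed by 0.07 (adjusted p = 0.9991). The main probe set had an r of 0.53 with the first of these over the 14 arrays and of 0.27 with the other, while those 2 had an r of 0.83 with each other. For fasting the 3 probe sets had differences of 0.10 ± 0.06, 0.09 ± 0.06 and 0.14 ± 0.08, none of which passed.

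Igf2 stood at 8.37, 8.40 and 8.18 in knockout fasted mice and at 6.92, 8.53, 8.42 and 9.28 in knockout fed mice. It stood at 7.77, 7.54 and 7.58 in control fasted mice and at 8.58, 7.44, 7.17 and 7.39 in control fed mice. Among fasted mice the 3 knockout arrays lay above the 3 control arrays, as for 7.64% of all genes. Among fed mice both groups held an array on the far side, with knockout fed replicate 1 the lowest and knockout fed replicate 4 the highest of all 14, and control fed replicate 1 higher than the other 3 control fed arrays by over 1 log2 unit. The averaged genotype difference was 0.66 ± 0.31, 1.58-fold (95% interval 0.01 to 1.32, limma, adjusted p = 0.9995), and 0.89 without knockout fed replicate 1 (adjusted p = 0.321). The averaged fasting difference was 0.01 ± 0.31. It was 1.60 with the series of the title numbers in the fit (adjusted p = 0.196). That adjustment is set by knockout fed replicate 1 alone. Among knockout mice of low title numbers, the 3 fasted arrays lay between 8.18 and 8.40 and the 1 fed array at 6.92. A second probe set of Igf2 was above background on 1 of 14 arrays.

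Igfbp2 stood at 8.80, 8.91 and 8.26 in knockout fasted mice and at 7.78, 8.61, 8.73 and 9.44 in knockout fed mice. It stood at 8.18, 8.29 and 7.94 in control fasted mice and at 8.95, 7.91, 7.74 and 7.88 in control fed mice. As for Igf2, knockout fed replicate 4 was the highest of all and control fed replicate 1 lay far above its group, whereas the lowest array was control fed replicate 3 for Igfbp2 and knockout fed replicate 1 for Igf2. The groups overlapped in every comparison. The averaged genotype difference was 0.52 ± 0.24, 1.43-fold (95% interval -0.002 to 1.04, limma, adjusted p = 0.9995). The averaged fasting difference was 0.02 ± 0.24. It was 1.02 with the title number series in the fit (adjusted p = 0.407), again set by knockout fed replicate 1 alone. Among knockout mice of low title numbers, the 3 fasted arrays lay between 8.26 and 8.91 and the 1 fed array at 7.78. Across the 14 arrays Igf2 and Igfbp2 had a Pearson r of 0.96, the highest of any pair of members, and the next was 0.70 for Ghrh with Ghr.

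Markers of the choroid plexus moved with this pair. All 12 markers fixed for that tissue were measured, among them Ttr, which encodes the thyroid hormone carrier transthyretin, Folr1, a folate receptor, and Kl, which encodes klotho. Their score was 0.81, 0.68 and 0.75 in knockout fasted mice, -1.23, 0.98, 0.95 and 1.47 in knockout fed mice, -0.17, -0.22 and -1.25 in control fasted mice and 0.73, -1.05, -1.38 and -1.05 in control fed mice. The 3 knockout fasted arrays and 3 of 4 knockout fed arrays were high, and the 3 control fasted arrays and 3 of 4 control fed arrays were low. All 12 markers had a positive averaged genotype difference, from 0.46 for Otx2 to 2.14 for Kcnj13, and 0 of 12 passed the threshold. On all arrays 9 of the 12 were above background, and none was below it throughout. Ttr ran from 9.03 to 13.14 over the arrays, and Kcnj13, an ion channel of the choroid epithelium, from 4.23 to 9.17.

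By this score 7 arrays lay between 0.68 and 1.47, 5 between -1.38 and -1.05, and 2 control fasted arrays apart from both at -0.22 and -0.17. Igf2 lay between 8.18 and 9.28 on the upper 7 arrays and between 6.92 and 7.77 on the other 7. Igfbp2 lay between 8.26 and 9.44 on the upper 7, at 8.18 and 8.29 on the 2 arrays in between and from 7.74 to 7.94 on the lowest 5. Over all 14 arrays the Pearson r with the score was 0.94 for Igf2 and 0.92 for Igfbp2. It was 0.88 and 0.79 over the 6 fasted arrays, and 0.97 and 0.96 over the 8 fed arrays. As the arrays fall into clusters, these r can reflect the step between clusters alone, and no p is given for them. Below 0 no cluster holds the 6 arrays that a relation needs. Within the upper 7 the Pearson r with the score was 0.89 for Igf2 (exact permutation p = 0.046, 0.092 adjusted over 2 relations, Spearman rho 0.46, exact p = 0.30). It was 0.64 for Igfbp2 there (exact permutation p = 0.17, 0.17 adjusted, rho 0.00, exact p = 1.0). Without the 2 arrays farthest from the median of these 7, r was -0.01 for Igf2 and -0.12 for Igfbp2. The relation within the upper 7 thus rests on those arrays, of which knockout fed replicate 4, at 1.47, lay above the other 6. With the score as a covariate the averaged genotype difference of Igf2 was -0.20 (adjusted p = 0.902) and that of Igfbp2 -0.14 (adjusted p = 0.959), so both turned sign.

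**Figure D4:**
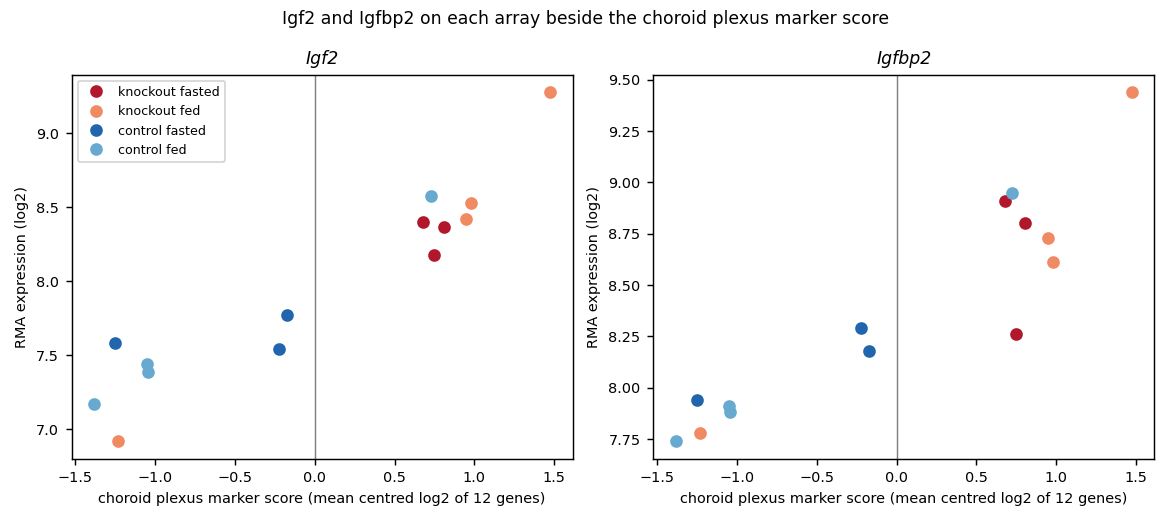
RMA expression (log2) of Igf2 and Igfbp2 on each of the 14 arrays against the choroid plexus marker score, the mean of the centred log2 values of 12 markers, with points coloured by group and a grey line at 0. Scores of 7 arrays, 6 of the 7 knockout arrays and 1 control array, lie between 0.68 and 1.47, those of 5 arrays between -1.38 and -1.05, and those of 2 control fasted arrays at -0.22 and -0.17.

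The meninges, which also express both genes, gave a second set of markers. All 13 were measured, and 8 were above background on all arrays, while the collagen gene Col1a1 was above it on none. The score lay between -0.08 and 0.01 in knockout fasted mice, -0.24 and 0.40 in knockout fed mice, -0.21 and 0.04 in control fasted mice and -0.30 and 0.62 in control fed mice, so the groups overlapped. Over the 14 arrays Igf2 had a Pearson r of 0.77 with it (permutation p = 0.00065, 0.0017 adjusted over 8 relations) and a rho of 0.89 (permutation p = 4e-05), and Igfbp2 an r of 0.74 (permutation p = 0.0019, 0.0039 adjusted) and a rho of 0.74 (permutation p = 0.0036). Without knockout fed replicate 4 and control fed replicate 1, whose scores lie farthest from the median, r was 0.77 for Igf2 and 0.59 for Igfbp2. Over the 8 fed arrays r was 0.84 and 0.89, but over the 6 fasted arrays 0.25 and -0.21, so the relation did not hold within fasted mice. With this score as a covariate the averaged genotype differences were 0.55 for Igf2 and 0.43 for Igfbp2.

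Upstream stretches of Igf2 and Igfbp2 are shown because the pair moved together more closely than any other members. The letters GGGCGG, a GC box bound by Sp1, occurred on either strand in 32.7% of the 32851 windows. They were in 6 of the 15 member windows, which belong to 5 of the 9 members. They occur 2 times in the stretch of Igf2, one of its 4 RefSeq starts, and 3 times in that of Igfbp2. The stretches are chr7:142657497-142657646 (minus strand) for Igf2, with a GC content of 66.7%, and chr1:72824330-72824479 (plus strand) for Igfbp2, with 72.0%, each ending at the base before the start and with the motif in capitals.
Igf2: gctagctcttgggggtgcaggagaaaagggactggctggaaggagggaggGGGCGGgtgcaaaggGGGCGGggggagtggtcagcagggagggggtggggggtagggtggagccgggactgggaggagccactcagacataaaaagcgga
Igfbp2: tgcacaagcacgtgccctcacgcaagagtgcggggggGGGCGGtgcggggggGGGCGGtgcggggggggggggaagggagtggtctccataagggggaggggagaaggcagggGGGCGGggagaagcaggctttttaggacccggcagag
The letters TAATCC, bound by OTX factors such as the choroid plexus regulator Otx2, were in 0 of the 15 member windows on either strand, against 6.25% of all windows. A motif as frequent as the GC box does not set these promoters apart.

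Igfbp5, which encodes another IGF-binding protein, is the neighbour of Igfbp2 on chromosome 1. It stood at 6.47, 6.37 and 6.32 in knockout fasted mice, at 6.24, 6.45, 6.69 and 6.45 in knockout fed mice, at 6.32, 6.34 and 6.45 in control fasted mice and at 6.29, 6.41, 6.26 and 6.54 in control fed mice. The groups overlapped, and knockout fed replicate 4 and control fed replicate 1, so high for Igfbp2, were not at the top. The r of Igfbp5 with Igfbp2 over the 14 arrays was 0.29. Its averaged differences were -0.04 ± 0.07 for fasting (95% interval -0.18 to 0.11, limma, adjusted p = 0.773) and 0.05 ± 0.07 for genotype (95% interval -0.10 to 0.19, adjusted p = 0.9995). It did not follow the cortex and hippocampus score (Pearson r = -0.09, permutation p = 0.75, rho = 0.12, permutation p = 0.69). The r was 0.38 without the 2 arrays farthest from the median, but -0.53 within the low and -0.39 within the high title numbers. Within fasted and within fed arrays r was -0.29 and -0.21.

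Igf1, which encodes the IGF that carries much of the growth hormone signal, stood at 8.0, 7.92 and 7.65 in knockout fasted mice, at 7.58, 7.88, 7.94 and 7.79 in knockout fed mice, at 7.76, 8.10 and 8.07 in control fasted mice and at 7.98, 7.99, 7.95 and 7.75 in control fed mice. The groups overlapped in every comparison. It was the member with the most negative averaged genotype difference, -0.12 ± 0.08 (95% interval -0.29 to 0.05, limma, adjusted p = 0.9995), and its averaged fasting difference was 0.06 ± 0.08. Its 4 probe sets had genotype differences of -0.12, -0.01, -0.16 and -0.05 and fasting differences of 0.06, 0.02, -0.17 and 0.005, in order of falling level, so they shared a sign for genotype and not for fasting. Microglia are a known source of brain IGF-1, and Igf1 was set against their score over all arrays (Pearson r = -0.11, permutation p = 0.70, rho = -0.07, permutation p = 0.81). It had an r of -0.20 over the 6 fasted and of 0.62 over the 8 fed arrays. Over the 9 arrays with a score above 0, r was 0.72 (permutation p = 0.033, unadjusted). These are the 8 fed arrays and knockout fasted replicate 3. Within the 7 arrays of high title numbers, all of them fed, r was 0.21, and within the 7 of low numbers -0.49. The 0.62 over the fed arrays thus rests largely on knockout fed replicate 1, the lowest array for Igf1 at 7.58. The 0.72 adds knockout fasted replicate 3, the next lowest at 7.65, so no relation within fed mice is drawn from these values.

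The third question was whether the fasting difference depends on genotype. For the interaction, in which the fasting difference of controls is taken from that of knockouts, 0 of 10 members passed in limma, where 0.0% of all genes did, and 0 members had an unadjusted p below 0.05, a level that 3.82% of all genes reached. The values ran from -0.19 ± 0.16 for Sstr1 to 0.14 ± 0.17 for Sstr2, and Igf1 and Igfbp2 had the same mean difference in both genotypes. The intervals were wide for Igf2 (-1.27 to 1.36) and Igfbp2 (-1.04 to 1.04), and narrowest for Sst (-0.39 to 0.09).

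Of 36 other genes of the axis, 32 were measured as single genes. In the averaged fasting comparison 2 of the 32 were higher and 0 lower in fasted mice, against 5.14% of all genes higher and 4.9% lower. These were Ghsr and Insr, and 0 of 32 passed in limma in the other 6 comparisons. Their median fasting difference was -0.04. Among the 5 lists, the 2 calls fell to 1 of 6 measured ligands and regulators and 1 of 2 measured receptors of insulin and IGFs, and to 0 of 3 further somatostatin receptors, 0 of 9 binding proteins and their proteases and 0 of 12 signalling genes.

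Ghsr encodes the ghrelin receptor, through which ghrelin stimulates growth hormone release and feeding. It stood at 4.78, 4.33 and 4.35 in knockout fasted mice, at 4.19, 4.01, 4.10 and 4.23 in knockout fed mice, at 4.48, 4.37 and 4.63 in control fasted mice and at 4.05, 3.90, 4.28 and 4.03 in control fed mice. Every fasted array lay above every fed array, a separation that 3.4% of all genes showed. The values are low, above background on 9 of 14 arrays. Ghsr rose by 0.39 ± 0.08 in fasted mice (limma, adjusted p = 0.00998), and passed in 24 of 25 alternatives. The exception was the title number series as a covariate (0.32, adjusted p = 0.561), set by knockout fed replicate 1 alone.

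Insr encodes the insulin receptor, the close relative of Igf1r. It stood at 8.27, 8.18 and 8.31 in knockout fasted mice, at 8.12, 8.14, 8.02 and 8.0 in knockout fed mice, at 8.28, 8.42 and 8.22 in control fasted mice and at 7.97, 8.01, 8.20 and 8.19 in control fed mice. Fasted arrays were the higher ones, with an overlap at 8.18 to 8.20. The main probe set of Insr rose by 0.20 ± 0.05 in fasted mice (limma, adjusted p = 0.0286), close in size to the difference of Igf1r. It passed in 16 of 26 alternatives, and the mean of the 3 probe sets gave -0.044 (adjusted p = 0.571). With every probe set tested on its own, the main one had an adjusted p of 0.0338, and a dim one, above background on 1 of 14 arrays, passed in the opposite direction (-0.23 ± 0.06, adjusted p = 0.0336). The other dim one, above background on 10 of 14, had -0.10 ± 0.08 (adjusted p = 0.506), so the direction for Insr depends on the probe set. The astrocyte and microglia scores given beside Igf1r split the same fasted and fed arrays, and their part in the values of Ghsr and Insr was not tested.

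By the smallest unadjusted p of each list, 7 further genes are named, and none passed. For fasting these were the binding protein gene Igfbp3 (0.19 ± 0.08, adjusted p = 0.141), the receptor gene Sstr4 (-0.10 ± 0.09) and Socs1, which encodes a suppressor of cytokine signalling (-0.14 ± 0.07, adjusted p = 0.189, above background on 0 of 14 arrays). For genotype they were Cort, which encodes the somatostatin-related peptide cortistatin (-0.23 ± 0.09), the phosphatase gene Ptpn1 (-0.13 ± 0.06), the stanniocalcin gene Stc2 (0.11 ± 0.07), the insulin receptor-related gene Insrr (0.06 ± 0.05) and again Sstr4 (-0.10 ± 0.09), each with an adjusted p of 0.9995. Insrr was above background on 0 of 14 arrays, and Stc2 and Sstr4 on 4 of 14 each, so these levels lie at or near background. Gh, the hormone itself, ran from 3.94 to 5.52 and was highest on knockout fed replicate 3 and control fed replicate 1. Its other 3 probe sets were high on those arrays and on knockout fed replicate 2, reaching 5.89, 6.57 and 5.15 there. Of 5 measured pituitary markers 1 was above background on all arrays, and Cga, the glycoprotein hormone alpha subunit gene, ran from 3.92 to 7.0. The pituitary score was 0.02 on knockout fed replicate 3, 0.01 on control fed replicate 1 and -0.25 on knockout fed replicate 2. It was highest, at 0.38, on control fasted replicate 3, where Gh stood at 4.51, so the list as a whole did not follow Gh.

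The genes whose values ran most like a member's over the 14 arrays were taken by Pearson's r among all genes tested, as a description. For Igf2 they were Calml4 (r = 0.963), a choroid plexus marker here, Slc13a4 (0.963), a sulfate transporter gene on the meningeal list, and Fap (0.956), a fibroblast protease gene. For Igfbp2 they were Fap (0.971), Igf2 itself (0.955) and the collagen gene Col8a2 (0.946). Fap is thus on both lists, and the r of Igf2 with Fap was 0.942 after group means were taken out. For Igf1r they were Tspan4 (0.936), Sgk3 (0.929) and Pla2g3 (0.928), the first encoding a tetraspanin and the second a kinase related to SGK1. For Ghrh they were Acsl6 (0.896), Exosc10 and Klhdc4, and for Ghr Tmem26 (0.819), Tcp10b and Antxr1. For Igf1 the first was Slc6a3 (0.853), the dopamine transporter gene, which itself ran from 5.39 to 8.92. The first genes of the other members had r between 0.824 and 0.890, namely Bmp2k for Sst, Nxf7 for Sstr1, Cldn3 for Sstr2 and 4921513I03Rik for Igfbp5. Of these, Nxf7, Cldn3 and 4921513I03Rik had mean levels of 3.76, 3.89 and 3.81, below the background line of 4.14. Each first gene was the highest of 17097 genes over only 14 arrays.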

How the data were processed

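Hypothalamic RNA (150 ng per sample) was measured on 14 Affymetrix arrays. The authors deposited log2 values, for which the submitters' processing notes name RMA and affy without versions. RMA subtracts background, quantile-normalises the arrays and joins the probes of a set into 1 value, and it compresses differences of dim probe sets. Of the genome build, the sources used here say nothing. Precision is limited by the number of arrays.

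Of 45141 probe sets, 28898 named 1 gene in the platform annotation, 551 several, and 15692 were not named there. Only the first kind was used, and each of 17097 genes was represented by its brightest probe set. No column was left out. Differences were fitted with limma 3.58.1 (R 4.3.3, 1 coefficient per group, 14 arrays, 10 residual and 3.27 prior degrees of freedom), two-sided, with Benjamini-Hochberg adjustment over all genes and a threshold of 0.05. The fit was also run on simulated data with independent noise and planted changes larger than the averaged differences of Igf1r and Ghr. That run does not bear on differences as small as theirs. Errors are SE unless stated. Exact permutation tests relabelled arrays within the other factor, and the smallest p they allow is 0.000816 for fasting and 0.000714 for genotype. Relations with marker scores used 100000 resamples, or exact enumeration within 7 arrays. Numbers in the titles all differ and pair no arrays.

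The members, the other genes of the axis and the marker lists were chosen with earlier results of these data known. Named genes were the 10 members, axis genes past the threshold, the smallest p per list in the averaged comparisons, Mfn1 and the 3 most alike genes per member. Promoter windows came from RefSeq (GRCm38.p6).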

Additional observations from a re-analysis of the deposited data

Results flagged for a closer look

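In 4 of the 20 groups of 4 arrays looked at for the members, 1 array stood apart by Dixon's test, whose critical value for 4 arrays is 0.829. Chance flags about 1 in 20 groups, but the groups share the same fed arrays, so the flags are not independent of each other. All 4 were control fed groups. The gap of the farthest array, as a share of the group's range, was 0.97 for Ghrh, where replicate 1 was low at 4.93 against 5.90 to 5.93, and 0.86 for Igfbp2, where the same replicate was high at 8.95 against 7.74 to 7.91. It was 0.833 for Sst, where replicate 2 was low at 9.86, and 0.833 for Igf1, where replicate 4 was low at 7.75. The Sst and Igf1 gaps are small in size, as those groups spanned 9.86 to 9.98 and 7.75 to 7.99. Their shares of 0.833 lie only just above 0.829.

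Control fed replicate 1 also had the highest cortex and hippocampus score of all arrays, 0.72, the highest meninges score, 0.62, and the lowest arcuate neuron score, -0.45. Without it the averaged genotype difference was 0.12 for Ghrh, 0.66 for Igfbp2 and 0.82 for Igf2, and 0 of these passed the threshold.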

How the results depend on the processing

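The count of members past the threshold was 0 in each of the 7 comparisons, and 160 of 1853 member differences under 27 alternatives turned sign, of which none had been called. In the averaged fasting comparison the count was 1, Igf1r, without the 40% of genes with the lowest mean (adjusted p = 0.0364), with a trended and robust prior (0.0260) and with array weights (0.0457). Leaving out 1 array gave 0 to 1 there and in control mice, and Igf1r was the member called, without knockout fasted replicate 3 (0.00964 averaged, 0.0474 in control mice) and without knockout fasted replicate 2 (0.0443 in control mice). The cause was not tested. No member was called under any of the alternatives run in the other 5 comparisons. The fasting difference of Insr was -0.044 as the mean of its probe sets, which gives 2 dim probe sets the weight of the main one, and Insr lost its call in 6 of the 14 fits without 1 array (adjusted p up to 0.0630). Fits on the arrays of 2 groups alone apply only to simple contrasts. The arcuate score as a covariate was added after seeing the data. No paired analysis was possible because no 2 sample titles share a number.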
